A study of Mus musculus with 6 samples.

Results

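A set of 10 genes of the mucous layer was followed in type II alveolar epithelial cells from mice bred for a conditional deletion of Gpr116, an adhesion receptor, and from control littermates. They were the mucins Muc1, Muc4, Muc5b, Muc5ac, Muc13, Muc16 and Muc20, the transcription factor Spdef, the protein disulfide isomerase Agr2 and the trefoil peptide Tff2. The genes were chosen by symbol, from probe sets that carry exactly 1 gene symbol in the platform annotation. All 10 were found, each with 1 probe set, among 19938 genes named in this way. Of the 10 genes 1, Muc20, passed the test of the difference between the groups, and it was higher in the pools labelled knockout. That is 10% of them, near the 8.49% of all genes that passed in either direction (3.36% higher and 5.13% lower).

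Mucins are long proteins that carry dense chains of O-linked sugars. Secreted mucins such as Muc5b and Muc5ac link into the gel of airway mucus, while transmembrane mucins such as Muc1, Muc4, Muc13, Muc16 and Muc20 stay at the cell surface. Goblet cells of the airway make the gel, and Spdef, an ETS transcription factor, drives their differentiation in mice. Agr2 acts in the endoplasmic reticulum on the folding of secreted mucins, and Tff2 is secreted with mucus. Type II cells make surfactant, carry Muc1 on their apical surface and are not goblet cells.

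Messenger RNA was measured on 6 Affymetrix arrays, each with RNA pooled from the cells of 3 mice aged 8 weeks. The 3 pools labelled knockout came from mice that were triple-transgenic, with SP-C-rtTA, (tetO)7CMV-Cre and Gpr116flx/flx. The 3 control pools came from double-transgenic littermates with SP-C-rtTA and (tetO)7CMV-Cre, so both groups carried the Cre transgenes. The surfactant protein C promoter drives the activator that switches Cre on, so deletion is directed to cells that use this promoter. The comparison asked how loss of Gpr116 changes transcripts of type II cells. The authors' RMA values are given on the log2 scale. RMA subtracts background and makes the distributions of the arrays alike. A log2 level depends on the probes of its probe set, so levels are compared between arrays and not between genes. Differences below are pools labelled knockout minus control pools, tested with limma over all 19938 genes with Benjamini-Hochberg adjustment, and a gene was called at an adjusted p under 0.05. Precision is limited by the small number of arrays. Muc5ac, Muc13, Muc16, Spdef and Tff2 had mean levels below the median of all genes. Whether they stood above background was not tested, so a small difference there does not show an expressed and unchanged gene.

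The Gpr116 probe set, now named Adgrf5, read 11.89, 11.78 and 11.87 in the pools labelled knockout and 11.49, 11.53 and 11.51 in control pools. It was called higher, not lower, in the pools labelled knockout, by 0.34 ± 0.05 (limma adjusted p = 0.0119). The position of its probes against the deleted exons is unknown, so this value cannot test the genotype, and every direction rests on the labels. By Kdm5d, Eif2s3y, Uty and Xist, knockout 2 and control 1 were male pools and the other 4 were female. Leaving out knockout 2 therefore removed the only male pool labelled knockout, and leaving out control 1 the only male control pool. No fit included sex. Markers of type II cells had a mean of 12.50 to 12.54 in the pools labelled knockout and 12.43 to 12.45 in control pools over 10 genes. Ciliated cell markers had a mean of 7.93 to 8.52 in the pools labelled knockout and 9.08 to 9.13 in control pools, and 16 of 17 were called lower. Club cell markers had a mean of 9.80 to 10.06 and 10.40 to 10.49, and 8 of 10 were called lower. Of all genes, 5.13% were called lower, and the marker lists were chosen with earlier results of these data known. In pooled cells, fewer cells of a type and less RNA per cell cannot be told apart. Each array title holds further numbers that the labels do not explain. The first of them is shared within a group, by knockout 1 and knockout 2 and by control 1 and control 2, and never between the groups.

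The clearest difference was that of Muc20, a transmembrane mucin known in human cells to bind the receptor Met. Muc20 read 9.78, 9.59 and 9.77 in the pools labelled knockout, against 9.45, 9.28 and 9.31 in control pools. Every pool labelled knockout stood above every control pool, the lowest of them by less than the spread within either group. The difference was 0.37 ± 0.08 on log2 (SE, n = 3 per group), a 1.29-fold higher level, with limma adjusted p = 0.0306 and a 95% interval of 0.19 to 0.55. The call was not secure. It was lost without knockout 1 (adjusted p = 0.0569), knockout 3 (0.102), control 1 (0.0585), control 2 (0.131) or control 3 (0.126), and held without knockout 2 (0.0184). It was also lost when all probe sets were tested (adjusted p = 0.0673). In each of these fits the difference lay between 0.33 and 0.43.

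Muc1, the mucin of the type II cell surface, was the other gene whose groups did not overlap, as those of 27.6% of all genes did not (14.8% higher and 12.8% lower in the pools labelled knockout). It read 12.57, 12.49 and 12.59 in the pools labelled knockout and 12.41, 12.42 and 12.39 in control pools. All pools labelled knockout were higher, by a small amount. The difference was 0.14 ± 0.05 on log2, and its 95% interval ran from 0.02 to 0.26, but with limma adjusted p = 0.155 it was not called. With quantile normalization the difference was 0.09. The highest values on the arrays were 13.32 to 13.43, and whether the level of Muc1 limits its difference was not tested. The mean of the type II markers was likewise higher in every pool labelled knockout than in any control pool, and 1 of these 10 markers was called, higher. Whether the levels of Muc1 and of these markers are tied was not tested.

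**Figure D1:**
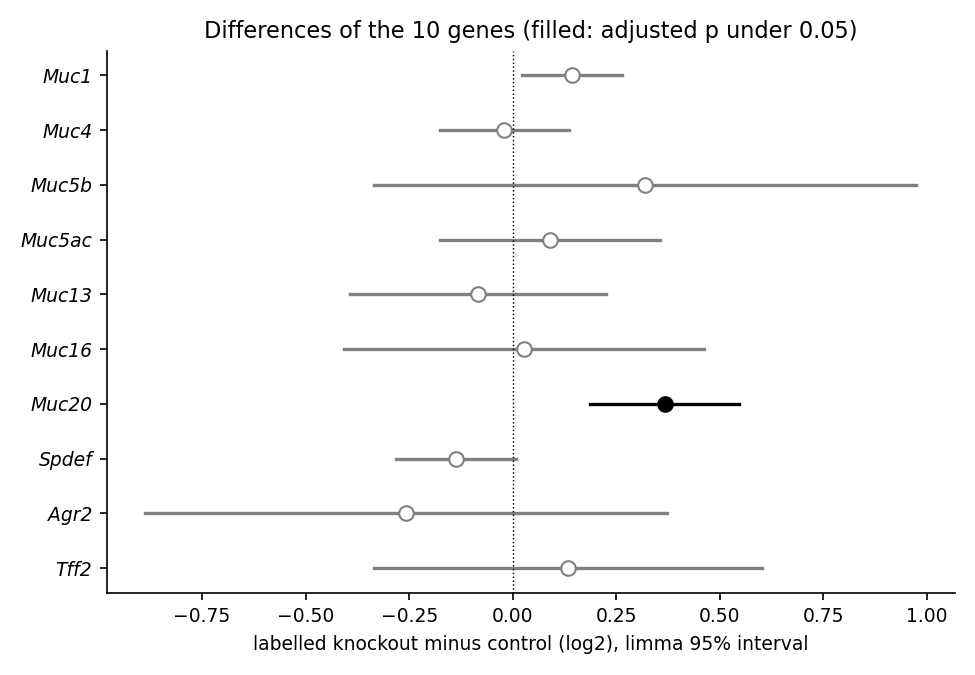
Difference in log2 level between the 3 pools labelled knockout and the 3 control pools for each of the 10 genes, with the limma 95% interval as a line. The filled point, Muc20 at 0.37, is the gene with an adjusted p under 0.05, and the widest intervals are those of Muc5b and Agr2.

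The sequences upstream of Muc20 and Muc1 are shown because these were the members whose groups did not overlap. They are the 250 bases before the gene start in RefSeq (GRCm38.p6), printed 5′ to 3′ along the gene. Muc20 lies on the minus strand (chr16:32797436-32797685) and Muc1 on the plus strand (chr3:89228806-89229055). Capitals mark matches, on either strand, to the letters TATAAA, known as the core of the promoter element that binds the general initiation factor, or to the letters GGGCGG, known as the element that binds Sp1.
Muc20: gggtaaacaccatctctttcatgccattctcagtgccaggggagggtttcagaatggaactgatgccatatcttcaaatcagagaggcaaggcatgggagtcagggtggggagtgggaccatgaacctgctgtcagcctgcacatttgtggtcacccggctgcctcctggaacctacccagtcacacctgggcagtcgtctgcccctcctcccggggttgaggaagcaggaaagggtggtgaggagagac
Muc1: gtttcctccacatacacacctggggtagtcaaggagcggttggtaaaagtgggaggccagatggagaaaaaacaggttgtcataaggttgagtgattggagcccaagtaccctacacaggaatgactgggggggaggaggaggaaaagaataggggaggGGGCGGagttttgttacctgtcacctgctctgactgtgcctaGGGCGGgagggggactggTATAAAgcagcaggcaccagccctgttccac
The Muc1 window held 1 match to TATAAA and 2 to GGGCGG. A match to TATAAA was found in 12.4% and a match to GGGCGG in 32.7% of 32851 such windows. The Muc20 window held neither. These are descriptions of letters in a window and not sites.

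The gel-forming mucin Muc5b varied more within each group than between the groups, and Muc5ac did so only in the pools labelled knockout. Muc5b, the mucin that mouse airways need for mucociliary clearance, read 8.25, 8.20 and 9.05 in the pools labelled knockout and 8.41, 8.42 and 7.71 in control pools. Knockout 3 stood high and control 3 low, while the other 4 pools lay within a narrow band in which the control pools were the higher. The difference was 0.32 ± 0.28 (limma adjusted p = 0.580, 95% interval -0.33 to 0.97). Without knockout 3 it was 0.04 and without control 3 it was 0.08. The standard deviation of Muc5b was 0.48 in the pools labelled knockout and 0.41 in control pools, against a median over all genes of 0.0907 and 0.0624.

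Muc5ac, the gel-forming mucin that allergic inflammation raises in mouse airways, read 6.57, 6.19 and 6.62 in the pools labelled knockout. In control pools it read 6.36, 6.40 and 6.35. The control values fell between the lowest and the others of the pools labelled knockout. The difference was 0.09 ± 0.11 (limma adjusted p = 0.724, 95% interval -0.18 to 0.36). The difference was 0.22 without knockout 2, the low pool (adjusted p = 0.0530), 0.03 without knockout 1 (0.899) and 0.01 without knockout 3 (0.978). In the RefSeq gene order Muc5ac lies between Muc2 and Muc5b. Muc2, the gel-forming mucin of the gut, read 5.93, 5.89 and 6.08 in the pools labelled knockout and 6.01, 5.99 and 5.94 in control pools, with overlapping groups.

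**Figure D2:**
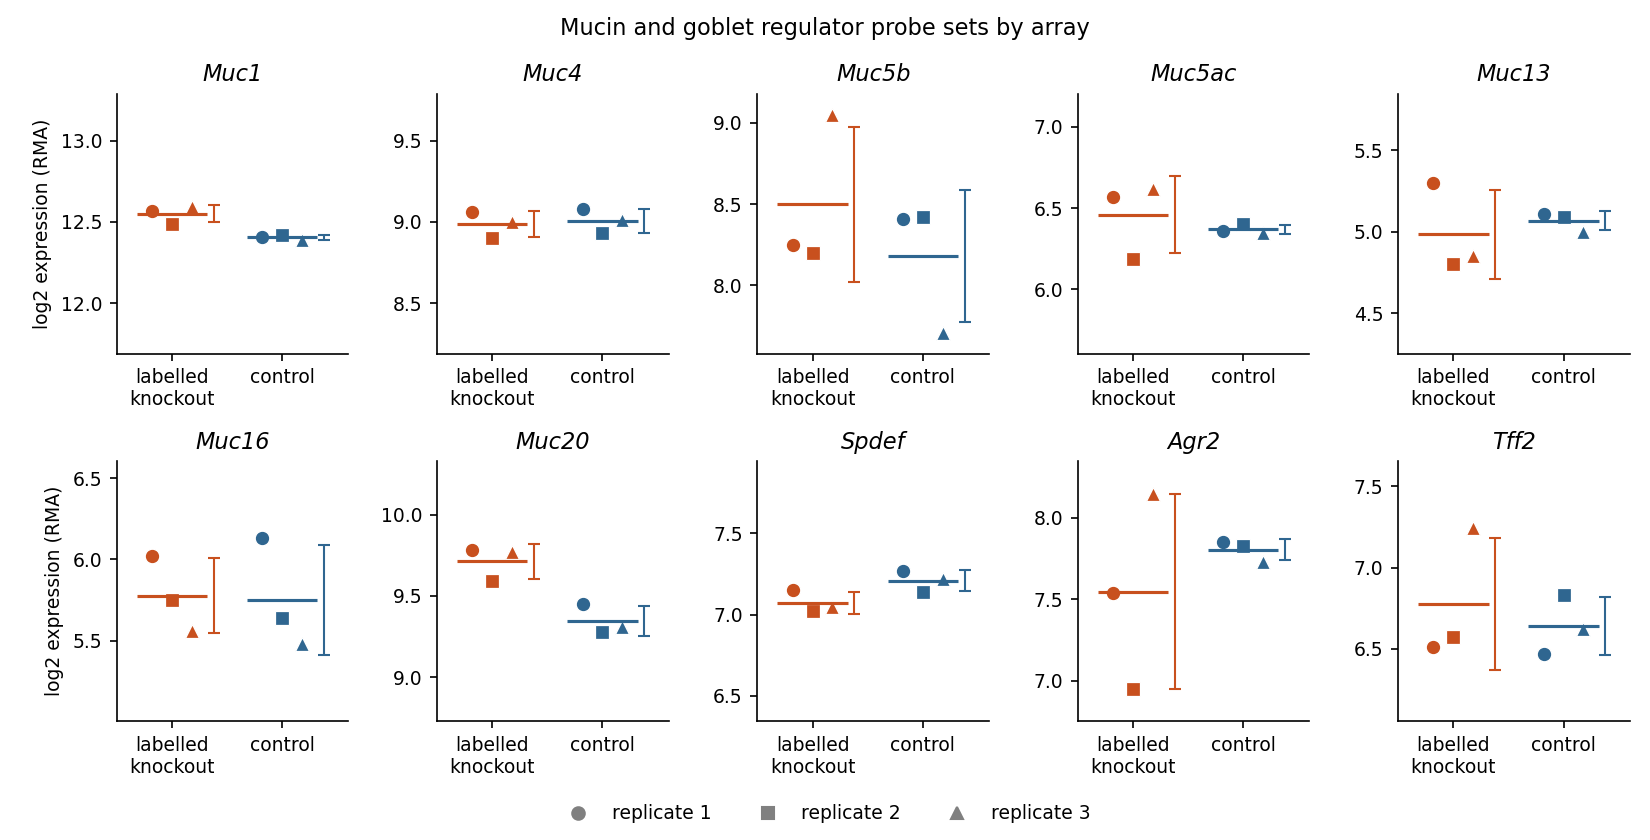
Log2 expression of each of the 10 genes in the 3 pools labelled knockout (left) and the 3 control pools (right), with the group mean as a line and the SD as a bar. All panels span the same number of log2 units. Muc20 and Muc1 have groups that do not overlap, and in Muc5b, Agr2 and Tff2 knockout 3 lies above all other pools.

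The transmembrane mucins Muc4 and Muc13 and the factor Spdef showed small differences. Muc4, an airway surface mucin that binds the receptor ErbB2, read 9.06, 8.90 and 9.0 in the pools labelled knockout and 9.08, 8.93 and 9.01 in control pools. Each control value had a close counterpart among the pools labelled knockout. The difference was -0.02 ± 0.07 (limma adjusted p = 0.911, 95% interval -0.18 to 0.14). Between pools of the same number it was -0.02, -0.03 and -0.01, and a fit with the replicate number as a block did not call it either (adjusted p = 0.886). Its sign turned when arrays were centred on their medians (0.01) and when knockout 2 or control 1 was left out without its counterpart (0.02 each). The annotated spans of Muc4 and Muc20 overlap in RefSeq, and where in these spans the probes lie is not known here.

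Spdef read 7.15, 7.02 and 7.05 in the pools labelled knockout and 7.27, 7.14 and 7.22 in control pools. The groups overlapped only through knockout 1 and control 2. The difference was -0.14 ± 0.06 (limma adjusted p = 0.252, 95% interval -0.28 to 0.01). Between pools of the same number it was -0.12, -0.12 and -0.17, and it lay between -0.18 and -0.11 when 1 array at a time was left out. Muc13, a mucin best known from the gut, read 5.30, 4.80 and 4.85 in the pools labelled knockout and 5.11, 5.09 and 5.0 in control pools. Its highest and its lowest value both came from pools labelled knockout. The difference was -0.08 ± 0.13 (adjusted p = 0.787, 95% interval -0.39 to 0.23). It was -0.24 without knockout 1 (adjusted p = 0.0611) and 0.01 without knockout 2.

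Muc16, a very large membrane mucin whose human form is the CA125 antigen and which mesothelium carries, separated pools within each group. It read 6.02, 5.75 and 5.56 in the pools labelled knockout and 6.13, 5.64 and 5.48 in control pools. The pool numbered 1 was the highest in both groups, as it was for Muc4, Muc13, Muc20 and Spdef, and the groups overlapped almost entirely. The difference was 0.03 ± 0.18 (limma adjusted p = 0.963, 95% interval -0.41 to 0.46), and its sign turned without knockout 1, control 2 or control 3 (-0.10, -0.03 and -0.11). The mean of 8 mesothelial markers, among them Msln and Wt1, read 8.61, 8.14 and 8.11 in the pools labelled knockout and 8.61, 8.34 and 8.23 in control pools. All 8 were highest in the pool numbered 1 of both groups, a pattern that 17.2% of all genes showed, and 0 of the 8 were called (limma, 0 with an unadjusted p under 0.05). The part of mesothelial cells in the Muc16 values was not tested.

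Agr2 spread widely among the pools labelled knockout. Those pools read 7.54, 6.95 and 8.15, against 7.85, 7.83 and 7.73 in control pools. The control pools stayed within 0.12 of each other, whereas knockout 2 lay below all of them and knockout 3 above. The difference was -0.26 ± 0.27 (limma adjusted p = 0.657, 95% interval -0.89 to 0.37), and it was 0.04 without knockout 2 and -0.56 without knockout 3. Agr3, its close relative and neighbour on the chromosome, which ciliated cells of the airway express, gave another picture. It read 7.32, 6.72 and 6.67 in the pools labelled knockout and 7.94, 8.12 and 7.99 in control pools, with no overlap. Agr3 fell by 1.11 ± 0.17 (limma adjusted p = 0.0110), but missed the threshold when control 2 or control 3 was left out (adjusted p up to 0.0603). Its order among the pools labelled knockout was that of the ciliated marker mean (8.52, 8.13 and 7.93), and the part of ciliated cells in it was not tested.

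Tff2 read 6.51, 6.57 and 7.24 in the pools labelled knockout and 6.47, 6.83 and 6.62 in control pools. Knockout 3 was again the highest of the 6 pools, and the other 5 were mixed. The difference was 0.13 ± 0.20 (limma adjusted p = 0.775, 95% interval -0.34 to 0.60), and without knockout 3 it was -0.10. The related trefoil genes on either side of it, Tff3 and Tff1, differed by -0.09 ± 0.05 and -0.05 ± 0.09 and were not called (adjusted p = 0.386 and 0.827). Trefoil peptides are small secreted proteins of mucous surfaces.

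Knockout 3 was the highest of the 6 pools for 5 of the 10 genes, namely Muc1, Muc5b, Muc5ac, Agr2 and Tff2, and for 17.8% of all genes. The margin over the next pool was only 0.02 for Muc1 and 0.05 for Muc5ac, against 0.30 for Agr2, 0.41 for Tff2 and 0.63 for Muc5b. Knockout 3 was also the highest for 6 of 10 type II markers, 5 of 8 type I markers and 4 of 7 endothelial markers. The same held for 6 of 27 products of goblet and gland cells, 1 of 10 club markers and 0 of 17 ciliated markers. A few secreted airway products, picked after their values were seen, stood far higher in that pool. Bpifb1, a secreted antimicrobial family protein, read 6.84, 6.77 and 9.03 in the pools labelled knockout and 7.09, 6.95 and 7.01 in control pools. Ltf, which encodes lactoferrin, read 7.12, 6.64 and 9.25 in the pools labelled knockout and 6.96, 6.72 and 6.66 in control pools. Only knockout 3 stood out for both. Scgb3a1, a secretoglobin of airway secretory cells, read 10.13, 10.15 and 12.02 in the pools labelled knockout and 10.65, 10.90 and 10.50 in control pools. Bpifa1, a relative of Bpifb1, read 9.69, 6.96 and 11.74 in the pools labelled knockout and 9.64, 8.00 and 9.22 in control pools. None of these 4 genes was called (limma adjusted p between 0.473 and 0.952). Without knockout 3 the differences of Ltf, Bpifa1, Bpifb1 and Scgb3a1 were 0.10, -0.63, -0.21 and -0.54, and that of Scgb3a1 was also -0.01 without control 3. In knockout 3 the ciliated marker mean was the lowest of the 6 pools. What set this pool apart was not tested.

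**Figure D3:**
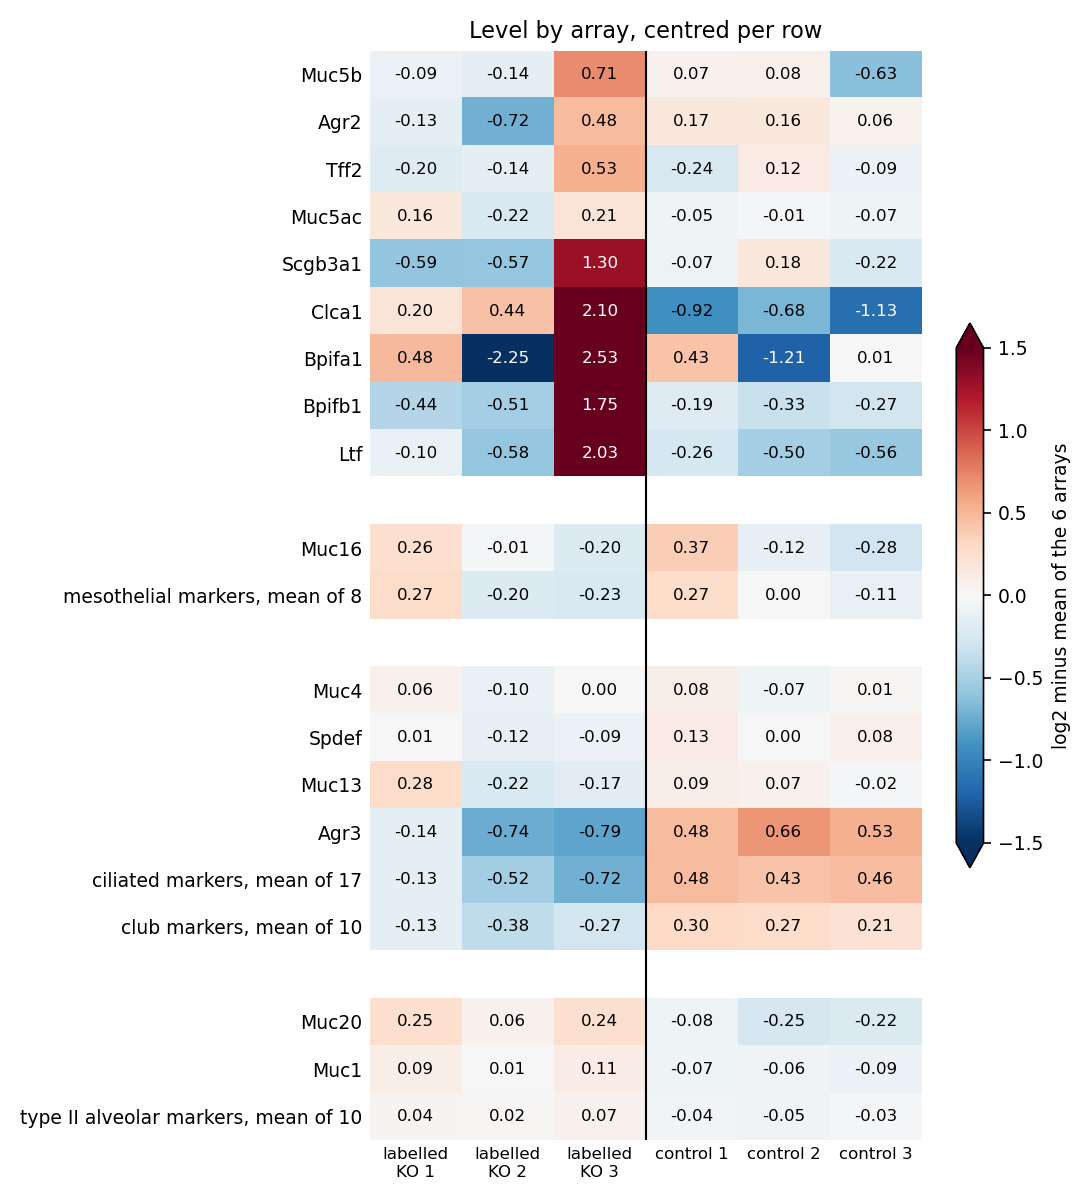
Log2 level in each pool minus the mean of the 6 pools, with pools labelled knockout on the left and control pools on the right, for the members, the genes named beside them and the means of marker lists. The uppermost block shows knockout 3 high for Muc5b, Agr2 and Tff2. It also shows Scgb3a1, Clca1, Bpifa1, Bpifb1 and Ltf, which were picked after their values were seen. Of 27 measured goblet and gland products, 6 (22.2%) were highest in knockout 3, against 17.8% of all genes. The Muc16 row and the mesothelial row are both high in the pools numbered 1.

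Profiles most like those of the most variable members were sought by the mean absolute difference over the 6 arrays, after each profile was centred on its own mean. The search covered the named genes other than the members and genes with predicted or clone symbols. Muc5b and Agr2 were the members with a range of at least 1 on log2 (1.34 and 1.20). The closest to Agr2 was A2ml1, a protease inhibitor of the alpha-2-macroglobulin family, at a mean difference of 0.065. A2ml1 read 6.67, 6.0 and 7.07 in the pools labelled knockout and 6.87, 6.97 and 6.84 in control pools, low in knockout 2 as Agr2 was. Olfr744 and the hexokinase gene Hk2 followed at 0.122 and 0.133. For Muc5b the closest were M1ap, Adamtsl3 and Ssxb3 at 0.165, 0.166 and 0.167. These are rankings over 6 arrays and carry no test.

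As a group the 10 genes had a median difference of 0.06 on log2, and all genes had one of 0.0033. By sign, 6 members had a positive and 4 a negative difference. For Muc4, Muc1 and Spdef, none of them called, the interval bound farthest from 0 was -0.18, 0.26 and -0.28. The intervals of Muc5b and Agr2 reached as far as 0.97 and -0.89, so changes of up to that size were not excluded.

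Other mucins gave 0 calls among 8 measured genes (limma, 1 with an unadjusted p under 0.05), with a median difference of -0.02. Mucl2, a mucin-like gene, had the smallest p of them. It read 4.43, 4.07 and 4.29 in the pools labelled knockout and 4.20, 11.35 and 10.05 in control pools. Control 2 and control 3 were bright and the other 4 pools were not, so the difference of -4.27 ± 1.66 had an adjusted p = 0.188. Without control 1 it was -6.44 with adjusted p = 0.00758. Muc3, a gut transmembrane mucin, followed at -0.18 ± 0.09 (adjusted p = 0.322), and its difference was -0.08 without control 3 (0.645). The surface sialomucins Emcn and Cd164 differed by 0.15 ± 0.09 and 0.02 ± 0.05 without a call.

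Among 27 measured genes of goblet transcription, Notch and interleukin 13 signalling, 1 rose and 5 fell (22.2% called, against 8.49% of all genes), and their median difference was -0.03. This and the following lists were chosen with earlier results of these data known, so their shares are only descriptions. In the fit on genes above the median level, 1682 of 9973 genes and 6 of 21 genes of this list were called. Il4ra, the receptor chain shared by interleukins 4 and 13, read 8.79, 8.79 and 8.82 in the pools labelled knockout and 8.22, 8.23 and 8.12 in control pools. The groups stood well apart, and Il4ra rose by 0.61 ± 0.05 (limma adjusted p = 0.00389). The partner chain Il13ra1 (0.06 ± 0.06) and the transducer Stat6 (-0.03 ± 0.05) were not called. The Notch ligands Jag1 and Jag2 fell by 0.97 ± 0.12 and 0.57 ± 0.11, and the receptors Notch1 and Notch2 by 0.43 ± 0.08 and 0.22 ± 0.05. Notch3 went the other way, by 0.19 ± 0.10, and Hes1 differed by -0.45 ± 0.16. Neither was called (limma adjusted p = 0.305 and 0.161). Sox2, a transcription factor of the conducting airway epithelium, fell by 1.04 ± 0.20 (adjusted p = 0.0252). Sox2 read 8.68, 7.98 and 7.86 in the pools labelled knockout and 9.26, 9.28 and 9.10 in control pools, the order of the ciliated marker mean among the pools labelled knockout. Jag1, Jag2 and Notch1 had that order too, Notch2 did not (10.42, 10.41 and 10.46), and 17.0% of all genes did. The part of ciliated cells was not tested. The goblet regulators Foxa2, Foxa3 and Klf4 had differences of -0.11, -0.01 and -0.20 and were not called. Il4ra and Jag1 passed in all 6 fits that left out an array. Notch1 and Jag2 did not pass without knockout 3 or without a control array, nor did Sox2, which also missed without knockout 2 (adjusted p up to 0.106). Notch2 missed the threshold in each of the 6 fits (up to 0.147) and in the fit with a replicate block (0.0793).

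Among 27 measured products of goblet and gland cells, 3 rose and 2 fell (18.5% called), with a median difference of 0.04. Slc26a4, the anion exchanger pendrin, read 8.17, 8.46 and 8.42 in the pools labelled knockout and 6.18, 6.02 and 5.86 in control pools. It rose by 2.33 ± 0.11 (5.03-fold; limma adjusted p = 0.000639). The lipocalin Lcn2 rose by 0.91 ± 0.07, and Pigr, which carries IgA across epithelia, by 0.65 ± 0.10 (adjusted p = 0.00324 and 0.0120). Agr3 and the sodium, potassium and chloride cotransporter Slc12a2 fell (Slc12a2 by 0.34 ± 0.06). Clca1, a secreted goblet cell protease, read 7.19, 7.43 and 9.09 in the pools labelled knockout and 6.07, 6.31 and 5.86 in control pools. Its groups did not overlap, and the difference of 1.82 ± 0.46 was not called (adjusted p = 0.0599). It was called without knockout 3 (1.23, adjusted p = 0.0166) and also without knockout 1 (2.18, adjusted p = 0.0268). Pigr lost its call without control 2 or control 3 (adjusted p up to 0.0661). Slc12a2 missed it without knockout 3 and without each control array (up to 0.0953), and in the fit with a replicate block (0.0516).

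**Figure D4:**
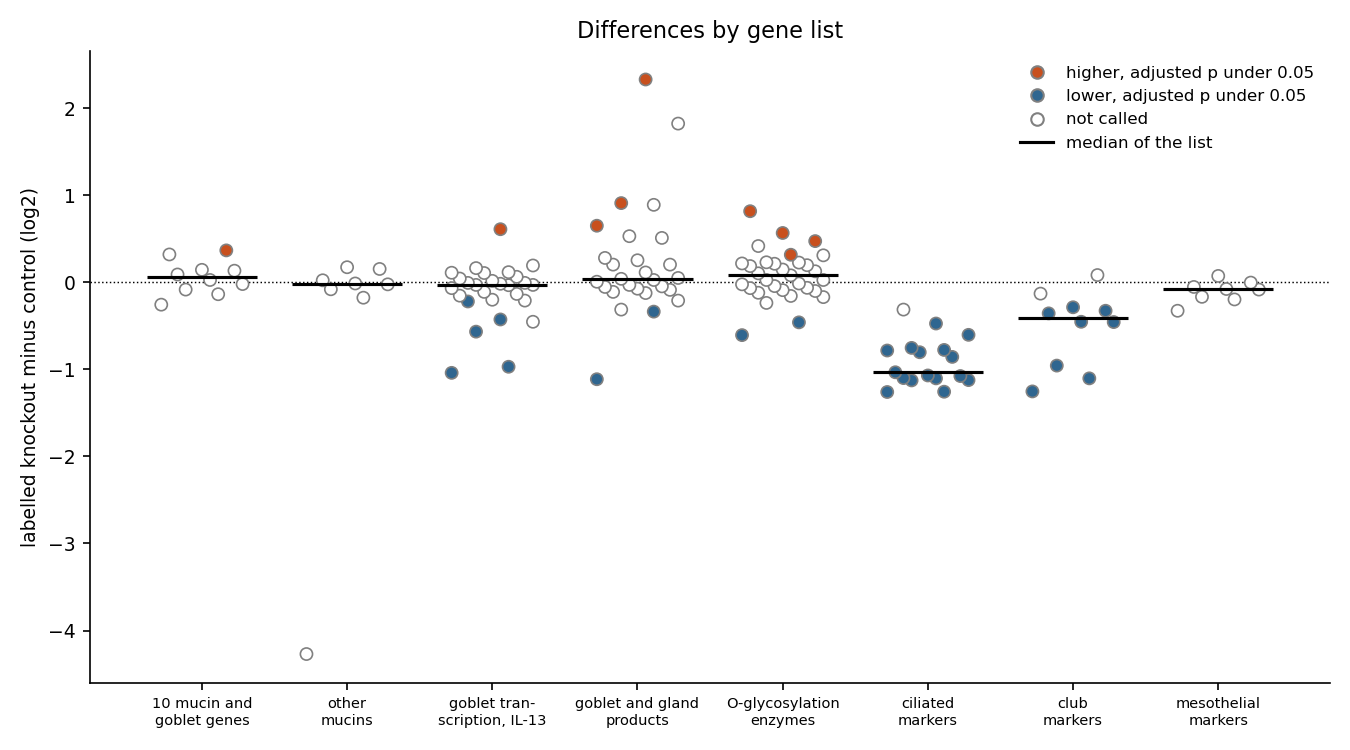
Difference in log2 level, pools labelled knockout minus control pools, for each measured gene of the 10 members, 4 lists of related genes and 3 lists of cell type markers, with the list median as a line. Filled points passed an adjusted p of 0.05. The members lie between -0.26 and 0.37. The other mucins lie between -0.18 and 0.17, apart from Mucl2 at -4.27, which stretches the axis. The ciliated markers centre on -1.03.

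Enzymes that build the O-linked sugars of mucins were called in 6 of 31 cases, 4 higher and 2 lower (19.4%), with a median difference of 0.08. The sialyltransferase St3gal1, which caps core 1 chains, read 10.21, 10.25 and 10.32 in the pools labelled knockout and 9.79, 9.77 and 9.80 in control pools. It rose by 0.47 ± 0.05 (limma adjusted p = 0.00489), and every pool labelled knockout stood clear of the control pools. With its 2 probe sets averaged, the difference of St3gal1 was 0.24 (adjusted p = 0.0374). C1galt1c1, the chaperone of the core 1 galactosyltransferase, rose by 0.57 ± 0.10, the fucosyltransferase Fut4 by 0.82 ± 0.18 and the sialyltransferase St6galnac4 by 0.32 ± 0.07. The galactosyltransferase B4galt5 fell by 0.61 ± 0.09. Galnt5, of the family that attaches the first sugar, fell by 0.46 ± 0.10 (adjusted p = 0.0321). The core 2 enzymes Gcnt1 and Gcnt3 had differences of 0.15 ± 0.13 and -0.12 ± 0.05 and were not called. St3gal1 passed in all 6 fits that left out an array, and B4galt5 lost it without control 3 (adjusted p = 0.0638). C1galt1c1 and Fut4 lost theirs without any 1 control array (up to 0.144), Galnt5 without any of these, knockout 2 or knockout 3 (up to 0.0958). St6galnac4 lost its call without knockout 1, knockout 2 or any 1 control array (up to 0.167), and in the fit with a replicate block (0.0507).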

How the data were processed

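The deposited log2 values, to 2 decimals for 35556 probe sets, were made by the authors. The submitters' processing notes name RMA and Affymetrix Expression Console 1.1. No genome build is given in the sources used here. Groups and replicate numbers came from the array titles. Type II cells were isolated with collagenase and differential plating, per the labels' protocols, and 3 mice made a pool.

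Of the probe sets 21789 had 1 gene symbol, 1621 several and 12146 none. A gene with several probe sets was represented by its brightest probe set on average over all arrays, which gave 19938 genes, and all 10 members matched RefSeq by Entrez identifier. The groups were compared with limma 3.58.1 in R 4.3.3 (lmFit, eBayes without trend, two-sided, no filter, weight or block). The fit was first tested on simulated data with independent noise and no pairs or sex. It recovered 63 of 100 changes of 0.5 and 88 of 100 changes of 1 on log2, and called 3 unchanged genes. Smaller changes, such as those of the members, were not simulated. Adjusted p-values set differences against the spread between pools, not between single animals.

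Over the tested genes, arrays with the same replicate number deviated together from their group means (r = 0.192, 0.103 and 0.111), each above the limit of 0.1 for treating the numbers as pairs. The labels do not say what the numbers mark, so the main fit did not use them. A fit with them as a block is reported beside it. Knockout 1 and control 1 differed in sex, as did knockout 2 and control 2. Members, the 4 related lists and the 13 marker lists were chosen with earlier results of these data known. The genes named were the members, up to 6 called genes of each related list and, where fewer than 2 were called, the 2 with the smallest p, and the 3 nearest profiles of members with a range of at least 1. Other genes named were chosen after their values were seen. Lyz2 and Pdpn each stand on more than 1 list.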

Additional observations from a re-analysis of the deposited data

How the results depend on the processing

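Leaving out 1 array at a time gave 459 to 1929 genes called, against 1692 with all arrays. It gave 0 to 1 members, 0 to 1 other mucins, 2 to 5 genes of goblet transcription and interleukin 13 signalling, 2 to 7 goblet and gland products and 1 to 7 O-glycosylation enzymes. With all probe sets tested, 950 genes, 0 members (2 with an unadjusted p under 0.05 by limma), 3 transcription and signalling genes and 3 O-glycosylation enzymes were called. Of the genes named as called, Muc20, Notch2, Jag2, Sox2, Galnt5, St6galnac4 and Fut4 then missed the threshold, and Notch2 did with median centring too (0.0881). The member count was 1 under the replicate block, quantile normalization, median centring, the filter on dim genes, the trended robust fit, array weights and averaged probe sets. With the replicate number as a block 1584 genes were called, Muc20 had an adjusted p of 0.0262, and among the members and related lists no call other than those of Notch2, Slc12a2 and St6galnac4 changed. With the first title number as a random block, chosen after seeing the data, 3685 genes, 1 member, 1 other mucin, 7 transcription and signalling genes, 9 goblet and gland products and 12 O-glycosylation enzymes were called. Arrays that share this number were less alike than others (consensus correlation -0.514), so this fit narrows the errors. It called Mucl2 (-3.96, 0.0437) and Clca1 (1.53, 0.0334), and Scgb3a1 turned to -0.21. In 134 of 145 refits of single members the sign held. Part of these refits could not turn it, because they leave the difference of a member unchanged. These were the replicate block, the filter on dim genes, the trended robust fit, all probe sets tested and averaged probe sets. The sign turned for Muc4 to 0.01 with median centring and 0.0014 with array weights, and for Muc16 to -0.01 with array weights. Leaving out 1 array gave -0.06 to 0.02 for Muc4, -0.24 to 0.01 for Muc13, -0.11 to 0.22 for Muc16, -0.56 to 0.04 for Agr2 and -0.10 to 0.27 for Tff2. Array weights gave -0.09 for Agr2 and 0.22 for Tff2. Leaving out 1 array gave 0.01 to 0.22 for Muc5ac and 0.04 to 0.47 for Muc5b. It gave -0.63 to 1.76 for Bpifa1, -0.21 to 0.92 for Bpifb1 and -0.54 to 0.40 for Scgb3a1. Clca1 was also called with array weights (2.10, 0.0180), and Fut4 was not called in the trended robust fit (0.0502). The cause of these changes was not tested. The filter on dim genes left 5 members untested.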

Other observations

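Mucl2 was not alone in its profile. Over all named genes, 4 stood at least 2 higher on log2 in both control 2 and control 3 than in any other pool, a search made after Mucl2 was seen. The secretoglobin Scgb2b27 read 3.90, 3.42 and 3.64 in the pools labelled knockout and 3.69, 9.81 and 8.39 in control pools. Prol1 read 3.79, 3.63 and 3.77 in the pools labelled knockout and 3.68, 8.03 and 6.56 in control pools. Scgb1b27 read 6.46, 6.62 and 6.79 in the pools labelled knockout and 6.88, 10.07 and 9.07 in control pools. Control 2 was the brighter of the pair for all 4 genes.

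Knockout 3 stood at least 1 above every other pool for 10 named genes. Besides Ltf, Bpifa1, Bpifb1, Clca1 and Scgb3a1 these included Reg3g, an antimicrobial lectin, which read 7.72, 7.35 and 9.91 in the pools labelled knockout and 7.68, 7.26 and 6.78 in control pools. The remaining genes were Cyp4a12b, Akr1c18, Cyp4a12a and Rasgef1b. None of the 10 members was among the 10 named genes, although Muc5b stood 0.63 and Tff2 0.41 above the next pool. These searches carry no test.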
